A study of Mus musculus with 6 samples.

Results

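The doublecortin family was read in RNA from the developing mouse molar through 5 genes, Dclk1, Dclk2, Dclk3, Dcx and Dcdc2a, taken by gene name from the 23594 genes of the deposited count table. All 5 were among the 20114 genes with enough counts to be tested. Dclk1 was selected on its measured fold difference between these same libraries, so that difference is given as a description with no test. The other 4 genes were taken because they belong to the same family.

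The furcation development region (FDR) is the area where the roots of a molar divide, and its apical tissue was cut out by laser capture from mandibular first molars of mice aged 4.5 days. There were 3 control libraries, labelled wild type, and 3 Lhx6-/- libraries, all on strain C57BL/6, with the tissue of several molars pooled in each. The Lhx6-/- mice were littermates homozygous for a knocked-in tamoxifen-inducible Cre that disrupts Lhx6, a LIM-homeodomain transcription factor, in every cell, and the labels list no treatment. Mice of both sexes were collected, and the labels do not say how many animals or which sex each library holds, so p-values measure the spread between pooled libraries.

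Most members of the family share the doublecortin domain, which binds and stabilizes microtubules. Doublecortin, the product of Dcx, is best known from migrating neurons, where its loss in people disturbs the layering of the cortex. The doublecortin-like kinases encoded by Dclk1, Dclk2 and Dclk3 belong to the calcium/calmodulin-dependent kinase branch, and Dclk1 is also widely used as a marker of tuft cells in epithelia. Dcdc2a encodes a protein without a kinase domain that has been placed at the primary cilium.

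On mm10, Dclk1 (ENSMUSG00000027797.15) lies on chromosome 3 from 55242364 to 55539068 on the plus strand, and Dclk2 (ENSMUSG00000028078.14) on the same chromosome from 86786151 to 86920852 on the minus strand. Dclk3 (ENSMUSG00000032500.10) lies on chromosome 9 from 111439081 to 111489118 on the plus strand. Dcx (ENSMUSG00000031285.14) lies on chromosome X from 143855842 to 143933311 on the minus strand, and Dcdc2a (ENSMUSG00000035910.15) on chromosome 13 from 25056004 to 25210706 on the plus strand. GENCODE vM21 gives Dclk1 15 transcripts with 12 start positions, against 1 transcript for Dclk3. The longest Dclk1 transcript, of 17 exons, starts at 55242364, while a second group of transcripts starts far along the gene, from 55461728. The long protein of this gene is known to join doublecortin domains to a kinase, and short forms made from inner starts to lack those domains. A gene total adds all of them, so these values do not say which form was measured. Dclk1 also overlaps Gm19817 and Gm42607 on the same strand and Gm42609 on the other, whose levels reached at most 0.376, 0.344 and 0.215 counts per 1000000 counts (CPM) in any library.

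The 250 bases before each of the 2 RefSeq starts of Dclk1 are shown because one gene total covers both starts and because Lhx6 carries a homeodomain, a fold that commonly binds the letters TAAT. They are written 5′ to 3′ on the plus strand of GRCm38.p6, and capitals mark TAAT on either strand (ATTA where it is on the minus strand). The first window spans chr3:55242114-55242363 and the second chr3:55461478-55461727.
Dclk1, first start: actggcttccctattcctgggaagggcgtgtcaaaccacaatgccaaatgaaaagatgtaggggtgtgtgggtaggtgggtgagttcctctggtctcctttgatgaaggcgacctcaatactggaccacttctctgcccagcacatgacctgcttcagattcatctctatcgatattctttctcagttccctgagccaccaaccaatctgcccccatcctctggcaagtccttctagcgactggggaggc
Dclk1, second start: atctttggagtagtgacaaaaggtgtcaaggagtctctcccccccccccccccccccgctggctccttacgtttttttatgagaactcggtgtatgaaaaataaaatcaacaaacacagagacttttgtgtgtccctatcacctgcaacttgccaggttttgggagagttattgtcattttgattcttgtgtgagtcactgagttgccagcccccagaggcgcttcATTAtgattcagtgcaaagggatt
The first window held no TAAT and the second held 1, and 54.9% of all 32851 RefSeq windows of the same length held at least 1. The longer palindrome TAATTA, which contains TAAT on both strands, was in neither window and in 4.84% of all windows. Of the other members, the single windows of Dclk2 and Dcdc2a held no TAATTA, and both overlapping windows of Dcx held 1. The promoter of Dclk3 was not analysed here. A match in letters is a description of the window, not a binding site.

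Each library held 60132323 to 76157433 estimated counts. The transcript of Lhx6 was at 27.8, 18.2 and 21.9 CPM in the 3 control libraries (here and below in the order of replicates 1 to 3) against 12.8, 9.82 and 10.5 CPM in the 3 Lhx6-/- libraries, so the targeted gene was lower under its label while transcript remained. Over all tested genes, 660 (3.28%, with 1.58% higher and 1.71% lower in Lhx6-/- tissue) met the fold and p rule of a 1.5-fold difference and an unadjusted p under 0.05. After Benjamini-Hochberg adjustment of the edgeR quasi-likelihood p-values, 81 genes (0.403%, with 0.323% higher and 0.0795% lower) were under 0.05. In 15.5% of tested genes (7.86% higher and 7.68% lower) the 3 values of one group did not overlap the 3 of the other. The median log2 fold change of all tested genes was -0.002. Markers summed to 69179 to 89668 CPM for dental mesenchyme, where Col1a1 alone was at 64844 to 85297 CPM. Those of ameloblasts, led by Amelx, summed to 115214 to 146612 CPM. The captured tissue therefore held mesenchyme and epithelium together. In such tissue, fewer cells of a type and less RNA per cell cannot be told apart.

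Dclk1, a kinase with doublecortin domains in its long form, had 2.05 times its mean control level in the Lhx6-/- libraries. Its level was 14.2, 13.5 and 13.9 CPM in the 3 control libraries against 30.7, 28.7 and 25.9 CPM in the 3 Lhx6-/- libraries. The lowest Lhx6-/- library was above the highest control library by more than the spread within either group. These levels rest on 824 to 903 counts per control library and 1878 to 2140 per Lhx6-/- library. Control libraries averaged 13.9 ± 0.348 CPM and Lhx6-/- libraries 28.5 ± 2.44 CPM (SD, n = 3 each). The fitted log2 fold change was 1.03 ± 0.09 (SE). Among control libraries the coefficient of variation was 2.51%, below the 3.39% that counting error alone gives, while among Lhx6-/- libraries it was 8.58% against 2.25% from counting. The groups did not overlap for Dclk1, with the Lhx6-/- libraries higher, as for 7.86% of tested genes. Since this contrast chose the gene, nothing is read from that.

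**Figure D1:**
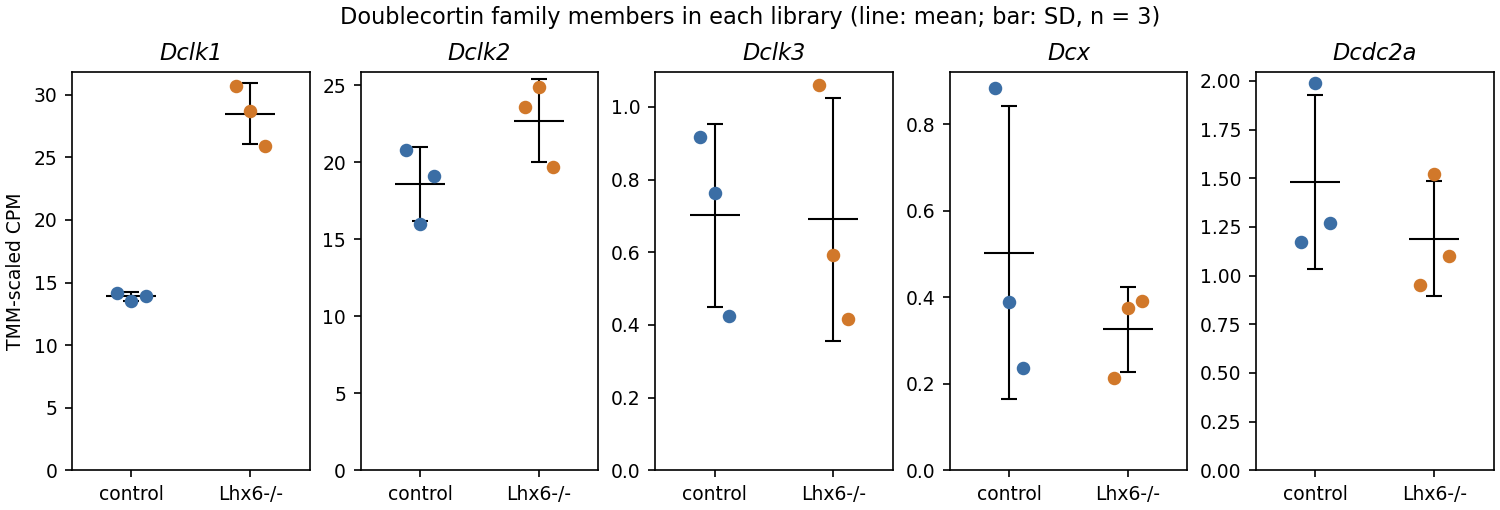
TMM-scaled CPM (vertical axes, each starting at 0 with its own scale) of the 5 members in each control (blue) and Lhx6-/- (orange) library, with lines for the mean and bars for the SD of 3 libraries. Dclk1, chosen for this difference, sits at 13.5 to 14.2 in control and 25.9 to 30.7 in Lhx6-/- libraries. The groups of the other 4 genes overlap, and those of 15.5% of all tested genes do not.

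The closest relative of Dclk1 by level was Dclk2, another kinase with doublecortin domains. Dclk2 was at 20.8, 16.0 and 19.1 CPM in the 3 control libraries against 23.6, 24.9 and 19.7 CPM in the 3 Lhx6-/- libraries. The groups overlapped, because control replicate 1 was above Lhx6-/- replicate 3. Control libraries averaged 18.6 ± 2.40 CPM and Lhx6-/- libraries 22.7 ± 2.69 CPM (SD, n = 3 each). The log2 fold change was 0.29 ± 0.12 (SE), with an edgeR adjusted p of 0.456. Its 95% interval, 0.03 to 0.54, corresponds to 1.02 to 1.46-fold. With the level of dental epithelium genes as a covariate the log2 fold change of Dclk2 was -0.06 ± 0.16 (SE).

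Dclk3, the remaining kinase of the family, was low in both groups. It was at 0.916, 0.763 and 0.423 CPM in the 3 control libraries against 1.06, 0.591 and 0.417 CPM in the 3 Lhx6-/- libraries, from 25 to 65 counts a library. Both groups covered almost the same range. The log2 fold change was -0.03 ± 0.49 (SE), with an edgeR adjusted p of 0.993. The 95% interval of -1.10 to 1.04 is wide. The coefficient of variation was 36.0% in control and 48.5% in Lhx6-/- libraries, against 15.0% and 14.6% from counting alone.

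Dcx, the founding gene of the family, was at 0.884, 0.389 and 0.237 CPM in the 3 control libraries. The 3 Lhx6-/- libraries held 0.213, 0.376 and 0.390 CPM. Control replicate 1 was higher than all other libraries, which covered a common range. With 13 to 55 counts a library, the log2 fold change was -0.62 ± 0.62 (SE), with a 95% interval of -1.97 to 0.73 and an edgeR adjusted p of 0.832. Without control replicate 1 it was 0.065.

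Dcdc2a, like Dcx a member without a kinase domain, was at 1.17, 1.99 and 1.27 CPM in the 3 control libraries. The 3 Lhx6-/- libraries held 0.949, 1.52 and 1.10 CPM. Replicate 2 was the highest library of each group, and the groups overlapped. The log2 fold change was -0.31 ± 0.34 (SE), with a 95% interval of -1.04 to 0.42 and an edgeR adjusted p of 0.847. It was 0.44 ± 0.56 (SE) with the level of dental epithelium genes as a covariate.

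None of these 4 relatives met the fold and p rule or had an adjusted p under 0.05 in edgeR, DESeq2 or limma. In edgeR 3.28% of all tested genes met the rule and 0.403% had such an adjusted p, so none among 4 is near those shares. Dclk2 alone had an unadjusted p under 0.05 in edgeR, as did 9.81% of all tested genes. Further genes with a doublecortin domain were scarce. Dcdc2b was at 0.241, 0.539 and 0.710 CPM in the 3 control libraries against 0.720, 0.188 and 0.349 CPM in the 3 Lhx6-/- libraries. The groups overlapped, with a log2 fold change of -0.25 ± 0.63 (SE) and an edgeR adjusted p of 0.950. Tmem234 overlaps Dcdc2b on the other strand. Rp1, a doublecortin-domain gene of photoreceptors, had 0 to 11 counts a library and was not tested. Dcdc2c, Dcdc5, Dcdc1 and Rp1l1 were not analysed here.

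**Figure D2:**
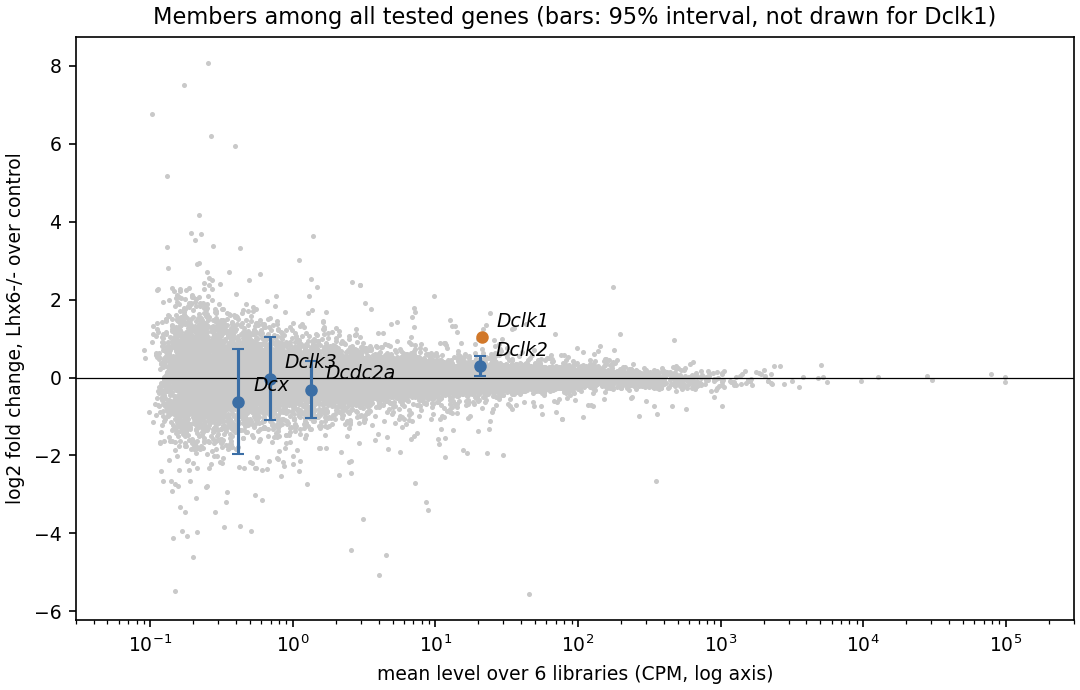
Log2 fold change of Lhx6-/- over control libraries (vertical axis) against the mean level in CPM (horizontal log axis) of all 20114 tested genes (grey) and the 5 members (Dclk1, chosen for this difference, in orange, the others in blue), with 95% intervals for the other 4. Dclk1 is at 1.03, and the intervals of Dclk3, Dcx and Dcdc2a, which are at low CPM, all include 0.

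The order of the members was read from CPM per kilobase of merged exon, so that gene length does not set it. In control libraries Dclk2 was highest at 1.52 to 1.97 CPM per kilobase, followed by Dclk1 at 0.883 to 0.928, and no library of one reached the other. Dclk3 at 0.141 to 0.305 and Dcdc2a at 0.142 to 0.240 CPM per kilobase could not be ordered, and Dcx was lowest at 0.0187 to 0.0699. In Lhx6-/- libraries Dclk2, at 1.87 to 2.36, and Dclk1, at 1.69 to 2.01 CPM per kilobase, overlapped, while the order of the other 3 was as in control. The merged exons of Dclk1 add up to 15296 bases, against 7962 for its longest transcript. Per kilobase of longest transcript, Dclk2 was still above Dclk1 in control libraries (1.99 to 2.58 against 1.70 to 1.78), but Dclk1 was above Dclk2 in Lhx6-/- libraries (3.25 to 3.86 against 2.45 to 3.09). Which of the pair was more abundant in Lhx6-/- tissue therefore depends on the length that is assumed. By mean control CPM, with no division by length, Dclk1 stood at percentile 58.7 of all tested genes and Dclk2 at 64.9, whereas Dcdc2a stood at 29.1, Dclk3 at 20.8 and Dcx at 17.0.

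The balance within the family differed in the same way. Dclk1 made up 37.4%, 41.3% and 39.8% of the summed counts of the 5 genes in control replicates 1, 2 and 3, and 54.3%, 51.2% and 54.5% in Lhx6-/- replicates 1, 2 and 3. Dclk2 made up 49.1% to 54.7% in control and 41.5% to 44.3% in Lhx6-/- libraries. The count ratio of Dclk1 to Dclk2 was 0.684 to 0.842 in control and 1.16 to 1.31 in Lhx6-/- libraries. The summed level of the 5 genes was 32.7 to 37.9 CPM in control and 47.5 to 56.6 CPM in Lhx6-/- libraries. These shares use the values that chose Dclk1 and are a description.

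**Figure D3:**
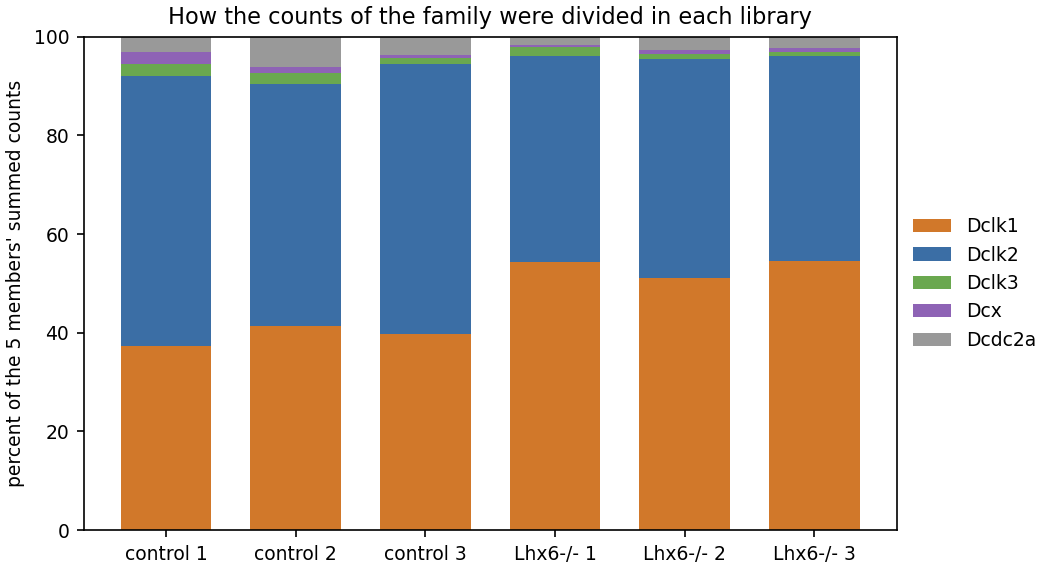
Stacked bars give the percent of the summed estimated counts of the 5 members (vertical axis, 0 to 100) that each gene held in each library (horizontal axis). The Dclk1 part covers 37.4% to 41.3% in the control libraries and 51.2% to 54.5% in the Lhx6-/- libraries, and Dclk3, Dcx and Dcdc2a stay thin in all 6.

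Across 11565 genes with a mean of at least 5 CPM, the 5 genes whose log2 CPM followed Dclk1 most closely over the 6 libraries were Mgat3, Smoc2, Fgd5, Abca8a and Osr2, with Pearson's r of 0.996, 0.995, 0.995, 0.994 and 0.991. With 6 libraries in 2 groups, 283 genes had an r over 0.9 with Dclk1. The r was taken over both groups together and so includes the difference that chose Dclk1. Its list of closest genes is therefore a description. Smoc2, which encodes a secreted matrix protein, went from 52.7 to 65.4 CPM in control to 271.4 to 309.1 CPM in Lhx6-/- libraries. Osr2, an odd-skipped transcription factor of the tooth germ, went from 16.8 to 18.6 CPM to 28.8 to 38.6 CPM. Mgat3, a glycosyltransferase gene, and Fgd5, a gene of endothelial cells, had small log2 fold changes of 0.31 ± 0.09 (SE) and 0.36 ± 0.10 (SE). For Dclk2 the closest genes were Sall2, Appl2, Pkd1, Vps13d and Dnm1, with r of 0.998 to 0.992 and log2 fold changes of 0.07 to 0.30. An r over 0.9 with Dclk2 was found for 339 genes. Pkd1 encodes polycystin 1 of the primary cilium, and Dnm1 a dynamin.

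Genes of the machinery around the family were read as 8 lists with 208 tested genes. The fold and p rule was met by 1 (0.481%), against 3.28% of all tested genes, and that count was 0 without control replicate 3 and 4 without control replicate 1. None had an adjusted p under 0.05 in edgeR, DESeq2 or limma, 12 (5.77%) had an unadjusted p under 0.05 in edgeR against 9.81% of all tested genes, and 96.6% were within 0.5 of 0 on the log2 scale. The 31 tested lissencephaly, dynein and reelin genes, which include the partners of doublecortin in nuclear movement, had a median log2 fold change of -0.045, with 6 above 0, 25 below 0 and none past the rule. The 17 binding partners and modifying enzymes of doublecortin had a median of 0.049, and the 35 structural microtubule-associated proteins one of 0.025. In neither of those lists did a gene meet the rule. Of 17 tubulins, 15 were below 0, with a median of -0.090. For 5 of the 17 every Lhx6-/- library was below every control library, against 7.68% of all tested genes, and for none above. An unadjusted p under 0.05 in edgeR was found for 3 of the 17, all lower. The summed tubulin level was 1702.7 to 1772.2 CPM in control and 1576.4 to 1684.7 CPM in Lhx6-/- libraries. The single gene of all 8 lists that met the rule was Tubb1, a beta tubulin of platelets. It was at 0.257, 0.224 and 0.592 CPM in the 3 control libraries against 0.0164, 0.0537 and 0.134 CPM in the 3 Lhx6-/- libraries, with a log2 fold change of -2.33 ± 0.88 (SE) and an edgeR adjusted p of 0.390. The 39 kinesins had a median log2 fold change of 0.0064, and the 28 genes of the calcium/calmodulin-dependent kinases, the kinase branch of Dclk1, one of -0.0084. Of 40 genes of the primary cilium, where Dcdc2a acts, 30 were above 0 and 10 below, with a median of 0.074, against 49.7% of all tested genes above 0.

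**Figure D4:**
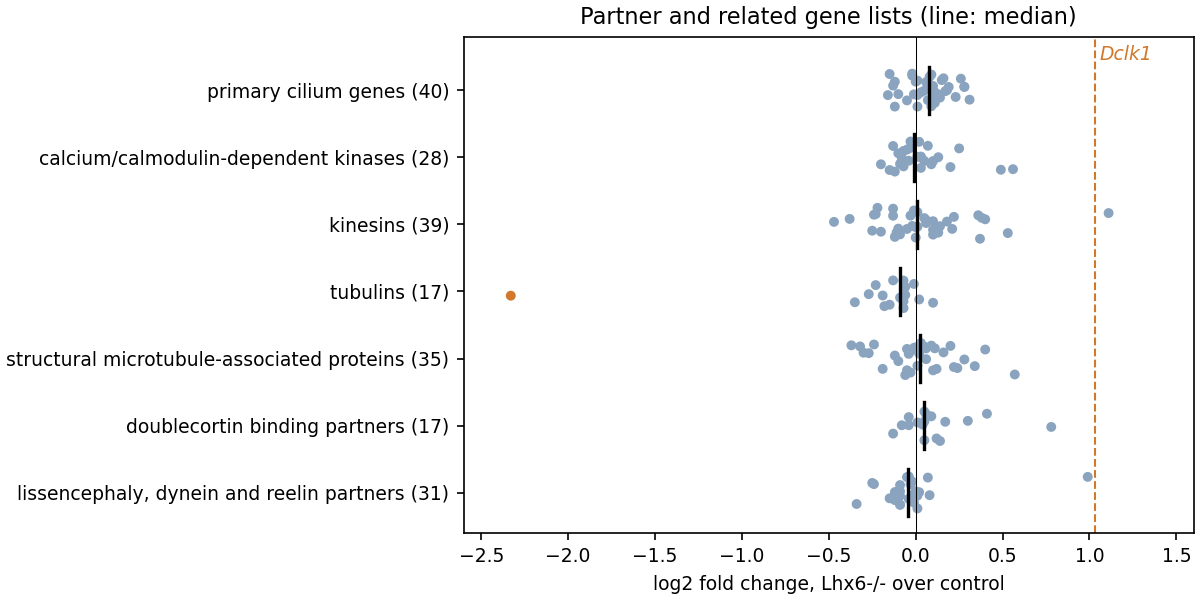
Log2 fold change of Lhx6-/- over control libraries (horizontal axis) for each tested gene of 7 lists of partner and related genes (rows, number tested in brackets), with a black line at each median and the value of Dclk1, 1.03, as a dashed line. Medians lie between -0.090 and 0.074, and the orange point at -2.33 is Tubb1, which alone met the fold and p rule.

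Dclk1 marks tuft cells in other epithelia, and Dcx marks young neurons, so markers of both were read. The summed level of 13 tuft cell markers was 44.0 to 51.2 CPM in control and 43.3 to 52.9 CPM in Lhx6-/- libraries. Pou2f3, the factor that defines tuft cells, was at 0 to 0.195 CPM in the 6 libraries and was too low to be tested. Of the 10 tested tuft cell markers, 1 met the rule, against 3.28% of all tested genes, and none did without control replicate 2 or Lhx6-/- replicate 1. Trpm5, a cation channel of taste and tuft cells, was at 5.75, 2.44 and 4.48 CPM in the 3 control libraries against 8.40, 6.23 and 6.28 CPM in the 3 Lhx6-/- libraries. Its log2 fold change was 0.72 ± 0.28 (SE), with an edgeR adjusted p of 0.415. The summed level of 19 neuron markers was 69.7 to 78.2 CPM in control and 61.1 to 69.1 CPM in Lhx6-/- libraries, with Uchl1 the most abundant. Of the 16 tested, 4 were above 0 and 12 below, with an unadjusted p under 0.05 in edgeR for 1 and 5 of them. The shares over all tested genes were 49.7% above 0 and 9.81% with an unadjusted p under 0.05 in edgeR. The rule was met by 4 of the 16, against 3.28% of all tested genes, all lower in Lhx6-/- tissue and none with an adjusted p under 0.05 in edgeR. They were Th, which encodes tyrosine hydroxylase (log2 fold change -1.25, SE 0.33), the neurofilament gene Nefm (-2.32, SE 0.74), the synaptic gene Snap25 (-1.31, SE 0.55) and the neuronal splicing factor gene Rbfox3 (-0.74, SE 0.31). The Snap25 groups overlapped, with control replicate 2 at 2.66 CPM and all other libraries at 0.349 to 0.739 CPM. Its log2 fold change ranged from -1.62 to -0.37 with a library left out. Nefm was low, at 0.0491 to 0.479 CPM. With a library left out, 3 to 4 genes of the list met the rule.

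Markers of several other cell types moved with genotype beside Dclk1. Of all tested genes, 1.58% met the rule and were higher in Lhx6-/- tissue, and 1.71% met it and were lower. Of 16 tested dental epithelium genes, 8 met the rule and were lower in Lhx6-/- tissue, and the summed level was 1586 to 2459 CPM in control and 1164 to 1341 CPM in Lhx6-/- libraries. Krt5, the most abundant of them, had a log2 fold change of -0.72 ± 0.17 (SE), with an edgeR adjusted p of 0.214. Of 7 blood genes, 3 met the rule and were lower, and the summed level was 3037 to 3765 CPM in control and 1609.9 to 2405 CPM in Lhx6-/- libraries. Pericyte and smooth muscle genes summed to 664.1 to 717.6 CPM in control and 831.9 to 951.4 CPM in Lhx6-/- libraries. Rgs5 of pericytes rose by 0.70 ± 0.10 (SE) on the log2 scale, with an edgeR adjusted p of 0.0135, and Myh11 of smooth muscle also met the rule. Endothelial genes summed to 498.4 to 514.6 CPM in control and 558.7 to 662.5 CPM in Lhx6-/- libraries, and Cldn5, a tight junction gene, rose by 0.64 ± 0.09 (SE), with an edgeR adjusted p of 0.0140. Of 14 Schwann cell genes, 3 met the rule, Cdh19, Gfra3 and Foxd3, all higher. Among 16 dental mesenchyme genes Dlx1, a homeobox gene, met the rule with a log2 fold change of 0.65 ± 0.12 (SE), with an edgeR adjusted p of 0.0413. The summed level, which is mostly Col1a1, overlapped. Of these 16 genes, 14 were above 0 and 2 below, with an unadjusted p under 0.05 in edgeR for 8 and 1 of them. Among all tested genes, 49.7% were above 0 and 9.81% had an unadjusted p under 0.05 in edgeR. For 9 of the 16 every Lhx6-/- library was above every control library, against 7.86% of all tested genes. No gene met the rule among 8 osteoblast, 10 dental follicle and periodontal ligament, 8 ameloblast and 11 immune genes. The ameloblast gene Amtn, below the 1.5-fold limit, fell by 0.54 ± 0.09 (SE) on the log2 scale, with an edgeR adjusted p of 0.0210. The adjusted p-values of Rgs5, Cldn5 and Dlx1 were 0.05 or more in 3, 5 and 8 of 18 alternative fits. The counts meeting the rule moved when a library was left out, from 8 to 2 for epithelium, from 3 to 1 for blood and from 3 to 5 for Schwann cells without control replicate 2, and from 8 to 5 for epithelium and from 2 to 1 for both pericytes and endothelium without Lhx6-/- replicate 1. With the level of dental epithelium genes as a covariate, the log2 fold change of Dclk1 was 0.92 ± 0.16 (SE). That level did not overlap between the groups, so such a fit, for Dclk1, Dclk2 or Dcdc2a, cannot fully separate it from genotype. The part of dental epithelium, mesenchyme, pericytes, endothelium, Schwann cells and blood in the Dclk1 values was not tested.

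**Figure D5:**
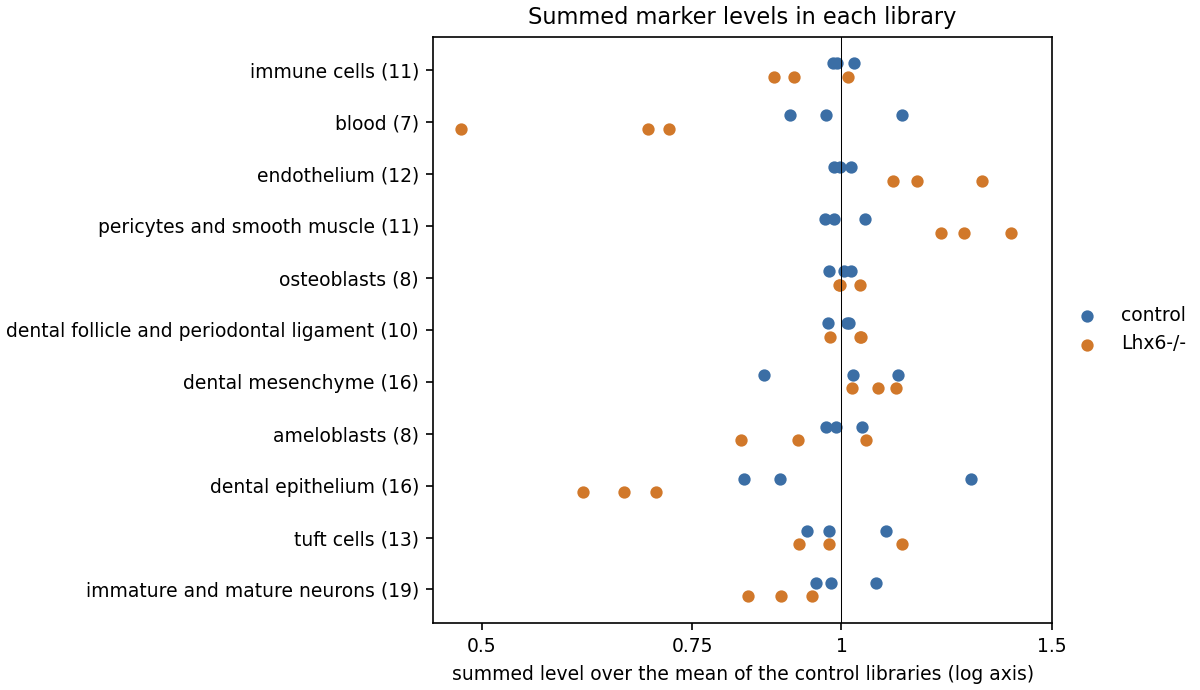
Summed CPM of 11 lists of cell type markers in each library, divided by the mean of the control libraries (horizontal log axis), for control (blue) and Lhx6-/- (orange) libraries, with the number of genes in brackets. The Lhx6-/- libraries lie below all control libraries for dental epithelium, blood and neurons, and above them for pericytes and smooth muscle and for endothelium.

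Sex-linked transcripts also differed between libraries. The summed level of 4 Y-linked genes was 17.4, 58.0 and 14.6 CPM in the 3 control libraries against 55.1, 92.1 and 88.5 CPM in the 3 Lhx6-/- libraries. Xist, the RNA of the inactive X chromosome, was at 792.0, 411.0 and 627.8 CPM in the 3 control libraries against 289.7, 0.228 and 0.0537 CPM in the 3 Lhx6-/- libraries. Every Lhx6-/- library was below every control library for Xist, so sex makeup and genotype cannot be fully told apart. With the Y-linked level as a covariate the log2 fold change of Dclk1 was 1.13 ± 0.15 (SE). Without any 1 of the 6 libraries it stayed between 0.98 and 1.10.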

How the data were processed

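RNA was measured in 3 control and 3 Lhx6-/- libraries, grouped by their titles. The authors trimmed single-end reads, aligned them to mm10 with STAR 2.6.1d and quantified genes in Partek; the annotation, the counter's settings and its use of strand are not given in the sources used here. The deposited estimated counts are not normalized, and each gene listed has 10 or more in its highest library. A second deposited table gives gene names, coordinates and a score per gene, the sum over libraries of 1 + CPM, which fixed the order of the genes (largest relative deviation 1.14e-07). Its ratio, fold change and p-value columns hold the authors' own comparison and were not used.

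After rounding to whole numbers, counts were scaled by TMM to CPM (factors 0.977 to 1.04). The test was the two-sided quasi-likelihood test of edgeR 4.0.16 (R 4.3.3) for genotype alone, with its expression filter and robust dispersion, adjusted over 20114 genes by the Benjamini-Hochberg procedure. The fold and p rule, a 1.5-fold difference and an unadjusted p under 0.05, is that of the study. The SE of a log2 fold change is its size over the root of its F value. With 3 libraries against 3 an exact permutation test cannot give a p below 0.1, so none is given for single values. On simulated counts with 200 changed genes among 20114, edgeR recovered 184 with 9 false calls at an adjusted p under 0.05. The fold sizes and levels of those 200 genes are not given here. Recovery of a 1.5-fold difference, or at the low levels of Dclk3 and Dcx, is therefore not given either.

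Members, gene lists and tests were chosen with earlier results of these data known. The genes named were Lhx6, the members, listed doublecortin-domain genes, list genes meeting the rule (at most 4 a list with values, by p), the 5 genes most like Dclk1 and Dclk2, and the most abundant markers; Pou2f3, Amtn, Xist, Tmem234 and the genes overlapping Dclk1 were added after their values were seen. The most abundant marker and the summed level of the Schwann cell list are not reported here. Exon lengths are from GENCODE vM21 and promoter windows from RefSeq (GRCm38.p6; 6 windows of 4 members). The authors' last position was 1 past the annotated end and was reduced by 1. Alternatives included DESeq2 1.42.0, limma 3.58.1, other scalings and filters, covariates, a replicate block and fits without 1 library.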

Additional observations from a re-analysis of the deposited data

How the results depend on the processing

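The log2 fold change of Dclk1 kept its sign in all 18 alternative fits. It ran from 0.92 with the dental epithelium level as a covariate to 1.13 with the Y-linked level, and from 0.98 to 1.10 when each library was left out. Since Dclk1 was chosen for this difference, its kept sign is a description and no support. An adjusted p under 0.05, found for 0.403% of all tested genes in the main fit, came up in no alternative for the other members. The lowest values for Dclk2, Dclk3, Dcx and Dcdc2a were 0.137, 0.936, 0.735 and 0.371. Signs changed for several, and the cause was not tested. With the dental epithelium covariate Dclk2 was at -0.062, Dcdc2a at 0.44, Sall2 at -0.036, Appl2 at -0.059, Pkd1 at -0.091, Vps13d at -0.026, Dnm1 at -0.16, Snap25 at 0.54 and Trpm5 at -0.31. With the Y-linked covariate Dclk3 was at 0.068 and Dcdc2b at 0.074. With libraries left out, Dclk2 ranged from 0.19 to 0.38, Dclk3 from -0.47 to 0.24, Dcx from -0.95 to 0.065, where the positive value came without control replicate 1, and Dcdc2a from -0.52 to -0.034. Dcdc2b ranged from -0.88 to 0.10. Of 610 refits of 34 other named genes, 538 kept their sign and side of the fold and p rule.

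Per kilobase of merged exon the Dclk1 share of the members' counts was 29.1% in control and 42.2% in Lhx6-/- libraries, and leaving out a library gave 38.6% to 40.5% and 52.8% to 54.4%. Per length, the log2 ratio of Dclk1 to Dclk2 moved from -0.96 to -0.41 in control and from -0.21 to 0.34 in Lhx6-/- libraries when the longest transcript replaced merged exons.

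The count of genes meeting the fold and p rule was 1174 with the Y-linked covariate, and 607 to 968 with a library left out. The 81 genes with an adjusted p under 0.05 became 315 in DESeq2, 233 with the Y-linked covariate and 14 with the epithelium covariate, and ranged from 12, without control replicate 3, to 127, without control replicate 1, also falling to 31 and 20 without Lhx6-/- replicates 1 and 2. Genes whose groups did not overlap numbered 4621 to 6213 with a library left out, where fewer libraries are compared. The single partner-list gene meeting the rule became 2 in DESeq2, 0 with at least 10 counts in every library, 10 with the Y-linked covariate, 11 with the epithelium covariate and 0 to 4 with a library left out. The paper speaks of 3 pairs of samples, but no label says which libraries pair. By the numbers in the titles, libraries with the same number did not deviate together (correlations 0.0256, -0.0288 and -0.0314). No control library correlated best with its own number. The deposited counts name the Lhx6-/- libraries by other numbers than the titles do. Since the numbers may not mark the pairs, these correlations do not test the pairing itself, and the replicate block uses the title numbers. The replicate block gave 134 genes with an adjusted p under 0.05 and 2 partner-list genes meeting the rule, and Dclk1 stayed within the range above. For Dclk3, Dcx and Dcdc2a, at 13 to 133 counts a library, counting error of 10.3% to 20.7% was smaller than the coefficient of variation between libraries, 24.7% to 67.2%.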
